A study of Mus musculus with 96 samples.

Results

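The transcripts described here are those of 8 transcription factors that keep the pancreatic beta cell in its mature state, Pdx1, Mafa, Nkx6-1, Nkx2-2, Neurod1, Pax6, Isl1 and Foxa2, together with the peptide hormone gene Ucn3. They were taken by gene symbol, and all 9 were found among the 20155 genes with values in the deposited expression table. Pancreatic islets and liver were taken from 48 male C57BL/6N mice, bought at 4 weeks of age and carrying no transgene, that were given a chow diet (CD, 13.5% fat in the labels) or a high-fat diet (HFD, 60% fat) for 4, 8, 12, 16, 20 or 24 weeks. Each diet and week held 4 mice, and each mouse gave 1 islet library and 1 liver library of poly(A) RNA. Levels are FPKM (read fragments scaled to transcript length and library size), and differences are on the log2(FPKM + 1) scale, HFD minus CD. Each week was collected from its own mice, so that age, time on diet and the day of collection cannot be told apart.

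Beta-cell identity rests on a network of DNA-binding proteins that act on each other's genes and on the insulin gene. Pdx1, MafA and NeuroD1 bind the insulin promoter directly, Nkx6.1 and Nkx2.2 keep the programs of other endocrine cells off in the beta cell, Pax6 and Isl1 serve several endocrine cell types, and Foxa2 opens chromatin in pancreas and liver alike. Urocortin 3, the product of Ucn3, belongs to the corticotropin-releasing factor (CRF) family; mature beta cells store it with insulin and release it with insulin, and it acts through the receptor Crhr2 on the neighbouring delta cells, which answer with somatostatin. Ucn3 and Mafa are both used as marks of beta-cell maturity in the mouse.

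The genes whose islet level differed between the diets in more than 1 week were Ucn3 and Nkx6-1, and the 250 bases upstream of their starts are given here because the factors of the list bind sequences of the kinds marked. Both come from RefSeq on the GRCm38.p6 build and both lie on the minus strand, Ucn3 at chr13:3945350-3945599 and Nkx6-1 at chr5:101664712-101664961. Capitals mark TAAT, the core read by homeodomain proteins such as Pdx1, Nkx6.1 and Isl1, and TGCTGA, part of the element read by Maf proteins, each on either strand (ATTA and TCAGCA are the reverse complements).
Ucn3: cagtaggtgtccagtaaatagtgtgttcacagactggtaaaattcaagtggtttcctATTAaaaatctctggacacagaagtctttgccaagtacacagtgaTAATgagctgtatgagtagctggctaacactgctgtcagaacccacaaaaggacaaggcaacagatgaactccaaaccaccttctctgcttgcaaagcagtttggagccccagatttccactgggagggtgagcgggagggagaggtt
Nkx6-1: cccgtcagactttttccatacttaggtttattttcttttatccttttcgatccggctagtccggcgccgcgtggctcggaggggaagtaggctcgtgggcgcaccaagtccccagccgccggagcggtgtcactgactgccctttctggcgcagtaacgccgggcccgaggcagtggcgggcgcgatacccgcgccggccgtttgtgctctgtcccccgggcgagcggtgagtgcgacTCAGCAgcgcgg
The Ucn3 stretch held 2 TAAT cores, 193 and 148 bases before the start, and the Nkx6-1 stretch held none. The Nkx6-1 stretch held 1 TGCTGA match, 12 bases before the start, and the Ucn3 stretch held none. TAAT was present in 54.9% and TGCTGA in 16.1% of the 32851 mouse promoter stretches of the same length, so that matches of this kind were common. CANNTG, the E-box read by NeuroD1 and the same on both strands, had 2 matches in the Ucn3 stretch (CAAGTG and CAGATG, 206 and 87 bases before the start), overlapping no marked core, and was present in 66.2% of all stretches. TGTTTAC, a forkhead motif of the kind read by Foxa2, was in none of the 11 stretches found for 8 of the genes and in 3.17% of all stretches. A match is a description of these letters only.

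All 9 genes were well above the floor of the measurement in islets. Ucn3 had the highest level, with a median of 328 FPKM over the 24 CD libraries (lowest 272, highest 437). Nkx6-1 followed at a median of 136 FPKM, Mafa at 110.5, Pdx1 at 76.3, Pax6 at 75.8, Neurod1 at 73.3, Nkx2-2 at 72.8, Isl1 at 47.0 and Foxa2 at 43.2. Ucn3 exceeded Nkx6-1 in 48 of the 48 islet libraries, and Nkx2-2 exceeded Isl1 in 47. Neurod1 exceeded Nkx2-2 in 22, and Pdx1 exceeded Pax6 in 28 of the 48, so that the middle of this order was not resolved from mouse to mouse. FPKM divides by transcript length, and the gene models listed with the deposited values differ. Mafa has 1 transcript of 1080 bases on chromosome 15 (75746843 to 75747922). The longest Nkx6-1 model has 13024 bases and the longest Pax6 model 18900. Whether reads were counted by strand is not given in the sources used here; Pax6 shares its locus with Elp4 on the other strand, which had 2.34 to 3.9 FPKM in the islet libraries.

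**Figure D1:**
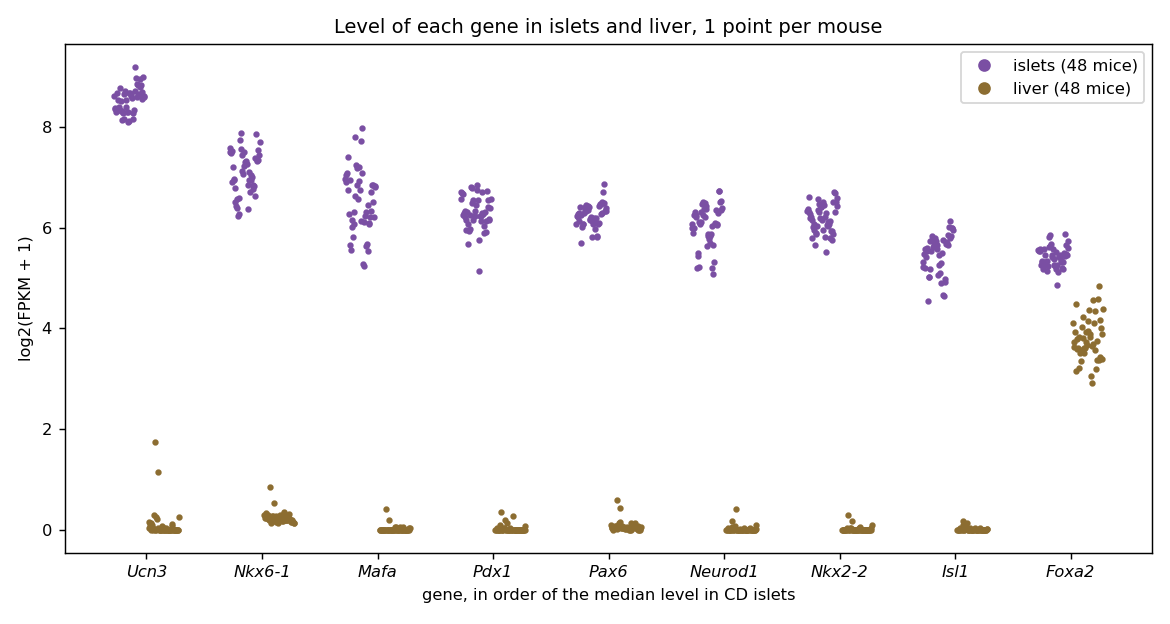
Level of each of the 9 genes in every islet library (purple) and every liver library (brown), 48 of each, as log2(FPKM + 1). Foxa2 was the only one of the 9 at or above 1 FPKM in all liver libraries, and Ucn3 was at or above 1 FPKM in 2 of them.

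The liver of the same mice separated Foxa2 from the rest, as the plot of islet and liver levels shows. Foxa2, which liver cells also use, had 6.55 to 27.6 FPKM there (median 12.4) and was at or above 1 FPKM in 48 of 48 liver libraries. Ucn3 reached 1 FPKM in 2 liver libraries, with a highest value of 2.33 FPKM, and was listed at 0 in 30. The other 7 genes stayed below 1 FPKM in every liver library. The islet libraries carried the hormone genes of islets, with Ins2 as the most abundant beta-cell marker, and Ins1 and Ins2 together held between 57.0% ± 2.38 (SD, n = 4; CD, week 12) and 71.3% ± 2.60 (HFD, week 4) of the summed FPKM.

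Over the 24 weeks, Ucn3 was called in more weeks than any other gene of the list, each time higher in HFD islets, and by amounts that differed between weeks, whereas the transcription factors gave a mixed picture. Among the 54 pairs of gene and week, 6 were higher and 1 lower in HFD islets at an adjusted p under 0.05 (limma, Benjamini-Hochberg over all genes tested). The higher calls were Ucn3 at weeks 12, 16 and 24, Nkx6-1 at weeks 12 and 16, and Isl1 at week 24; the lower call was Neurod1 at week 8. Pdx1, Nkx2-2, Pax6, Mafa and Foxa2 were called in no single week. An unadjusted p under 0.05 was reached by 16 of the 54 pairs (29.6%), beside 21% of all pairs of gene and week tested. All 9 genes passed the filter on low values in every week. With each library scaled to the same FPKM sum, more pairs were called lower than higher. The lower calls were then Neurod1, Pax6, Foxa2 and Ucn3 at week 8 and Isl1 at week 12. Only Ucn3 was then called higher, at weeks 16 and 24.

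The shares of all genes called differed from week to week and are the background for those counts. At week 4, limma called 0% of 11569 genes higher and 0% lower, with 854 genes at an unadjusted p under 0.05, among them 4 of the 9. At week 8, 0.602% of genes were called higher and 4.67% lower, and 1 of the 9 was lower. At week 12 the shares were 2.18% higher and 2.35% lower, and 2 of the 9 were higher. At week 16 they were 3.3% and 5.15%, again with 2 of the 9 higher. At week 20 they were 1.53% and 3.21%, with none of the 9 called. At week 24 they were 6.57% and 1.73%, with 2 of the 9 higher. The median log2 difference of the 9 genes was -0.12, -0.20, 0.13, 0.02, 0.02 and 0.14 at weeks 4 to 24 in order, beside -0.03, -0.11, 0.01, 0.01, -0.02 and 0.08 for all genes tested.

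**Figure D2:**
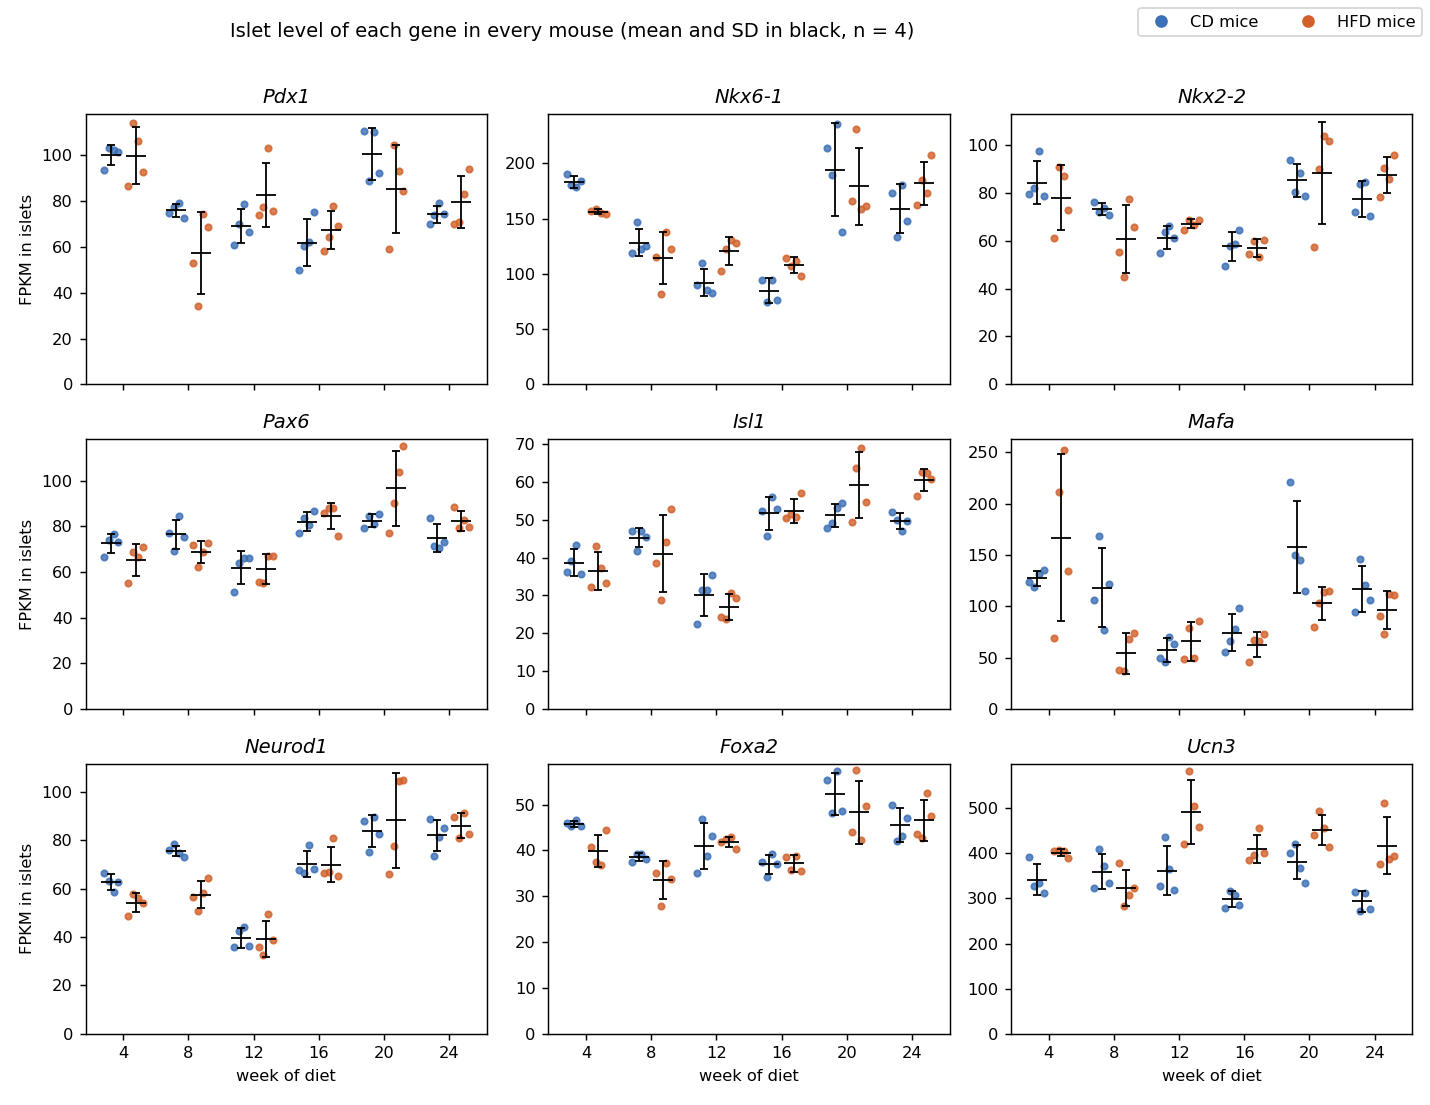
Islet FPKM of each of the 9 genes (linear axis from 0) against weeks on the diet, with 1 point per mouse, CD and HFD side by side, and the mean and SD of each 4 mice in black. HFD points of Ucn3 lie above all CD points at weeks 16 and 24, and HFD points of Mafa lie below all CD points at weeks 8 and 20.

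Ucn3 lies on chromosome 13 (3940688 to 3945349, minus strand). At week 4 its level was 392.1, 328, 333 and 312.7 FPKM in the 4 CD mice and 406, 406, 404.6 and 389 FPKM in the 4 HFD mice. The groups overlapped only through the highest CD mouse, and the log2 difference of 0.24 ± 0.07 (SE) did not pass the test (adjusted p = 0.6004). At week 8 the order was the other way, with 323, 408, 372 and 334 FPKM in CD and 379, 283, 307.5 and 323 FPKM in HFD, and the groups overlapped widely (log2 difference -0.16 ± 0.10, adjusted p = 0.305).

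At week 12 Ucn3 was higher in HFD islets. The CD mice had 327, 437, 365 and 319 FPKM and the HFD mice 419.7, 583, 504.9 and 459 FPKM. One CD mouse, at 437 FPKM, exceeded the lowest HFD mouse, so that the groups overlapped although the means, 362 ± 53.9 and 492 ± 70.3 FPKM (SD, n = 4 each), differed by 35.9% (log2 difference 0.44 ± 0.11, adjusted p = 0.0402). This call was lost in 4 of 8 fits that left out 1 mouse (without CD304, CD307, CD308 or HFD316), with adjusted p from 0.0812 to 0.103. It was also lost with each library scaled to the same FPKM sum (0.23, adjusted p = 0.0804), without the filter on low values (adjusted p = 0.216) and with plain variances (adjusted p = 0.0708).

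At week 16 every HFD mouse exceeded every CD mouse. The CD values were 279.7, 317, 308.2 and 286 FPKM and the HFD values 384, 397, 456 and 402 FPKM, a difference of 37.5% between the means (298 ± 17.7 and 409.7 ± 31.8 FPKM, log2 difference 0.46 ± 0.07, adjusted p = 0.000674). This was the smallest adjusted p among the 54 pairs, and it passed in all 8 fits without 1 mouse, with a log2 difference of 0.40 to 0.49. At week 20 the CD mice had 399.97, 420.4, 368 and 334 FPKM and the HFD mice 441, 493, 455 and 413.6 FPKM. The highest CD mouse lay above the lowest HFD mouse, and the difference of 0.25 ± 0.09 did not pass (adjusted p = 0.115).

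At week 24 the groups were apart again. The CD mice had 315.1, 272, 312.7 and 276 FPKM and the HFD mice 377, 511.4, 387 and 394 FPKM, a difference of 42.0% (log2 difference 0.50 ± 0.10, adjusted p = 0.00501). The mouse at 511.4 FPKM, HFD614, stood above the other 3, and without it the difference was 0.40 (adjusted p = 0.00767). Averaged over the 6 weeks, the HFD effect on Ucn3 was 0.29 ± 0.04 on the log2 scale (adjusted p = 4.34e-07), and this held in all 48 fits that left out 1 mouse, with values of 0.27 to 0.30. It was not called with the alpha and delta hormone score as a covariate (0.24, adjusted p = 0.732), and the week 24 call was lost without the filter on low values (adjusted p = 0.0767).

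The size of the Ucn3 difference was not the same at each week. The diet-by-week term of the fit over all 48 islet libraries passed for Ucn3 (F = 5.83, adjusted p = 0.0192), as it did for 4.25% of the 12378 genes tested, and for none of the 8 transcription factors. The term was no longer called when HFD212 or CD205, both of week 8, was left out, and with median-ratio scaling or the alpha and delta hormone score as a covariate. The 12 groups, ordered by mean level, ran from HFD week 12 (492 FPKM) through HFD weeks 20, 24, 16 and 4 to CD weeks 20, 12, 8 and 4, then HFD week 8, CD week 16 and CD week 24 (294 FPKM). In none of the 11 steps between neighbours of this order did the means differ by more than the larger of the 2 SDs.

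**Figure D3:**
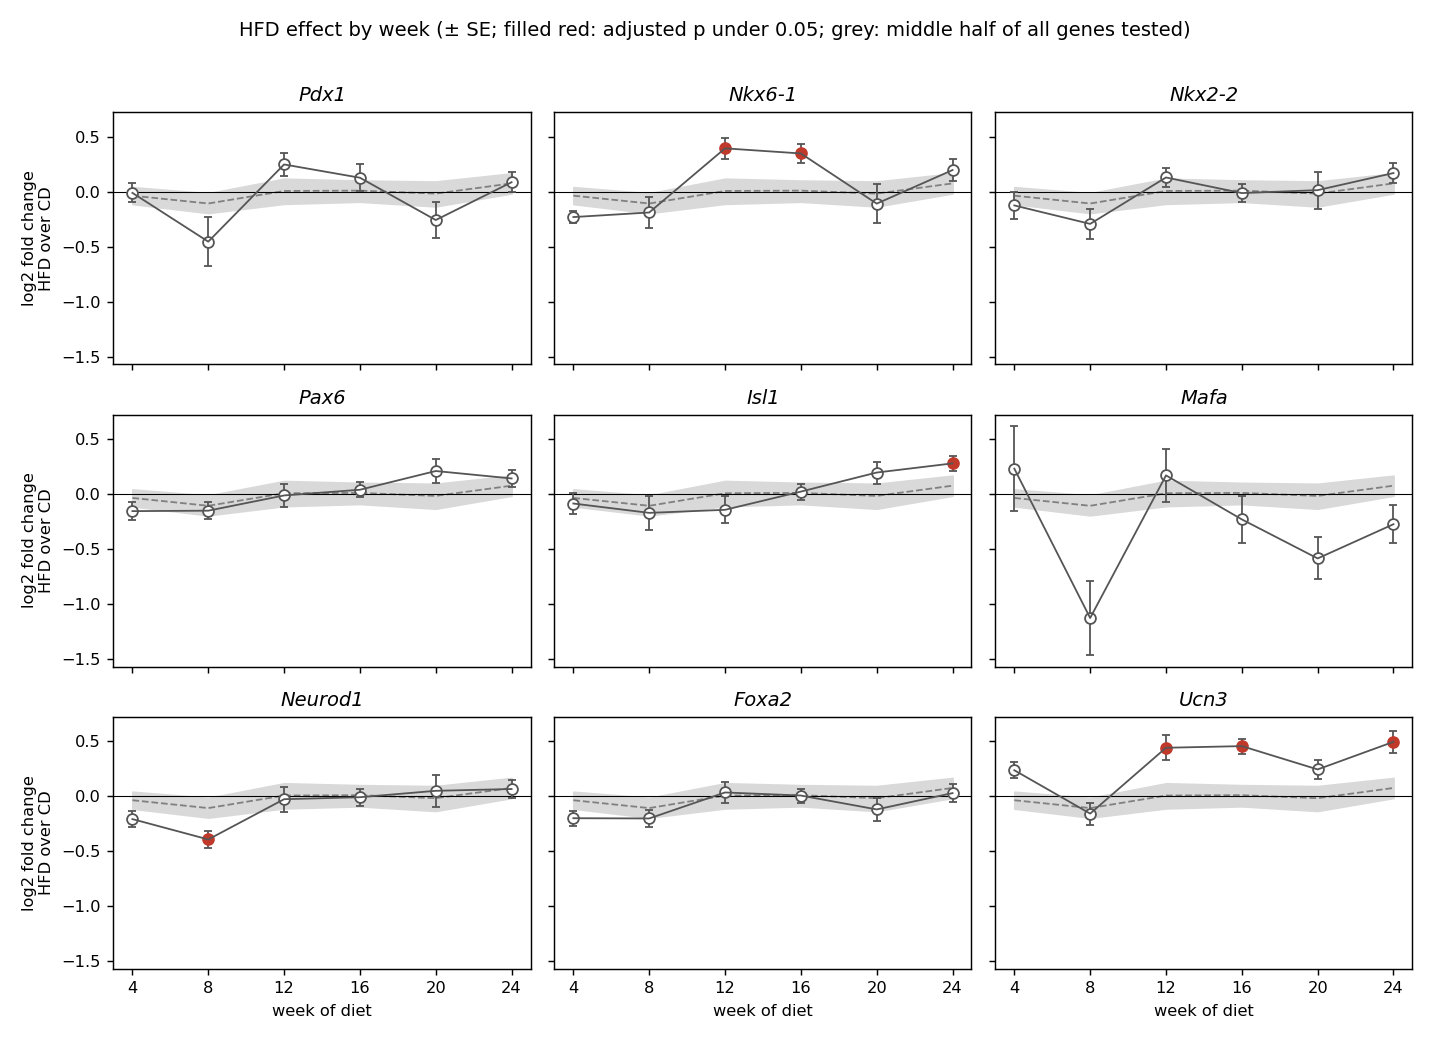
Log2 difference of HFD minus CD islets for each of the 9 genes against weeks on the diet, with SE bars (n = 4 mice per diet), filled red where the adjusted p was under 0.05, and in grey the interquartile range of all genes tested. Ucn3 was above 0 in 5 of the 6 weeks, and all 9 genes were below 0 at week 8.

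Nkx6-1, which represses the programs of other endocrine cells in the beta cell, lies on chromosome 5 (101647720 to 101664711, minus strand). At week 4 it was at 191, 180.3, 178 and 184 FPKM in CD and 157, 159, 155 and 154 FPKM in HFD mice. Every HFD mouse was below every CD mouse, yet the log2 difference of -0.23 ± 0.05 did not pass over all genes (adjusted p = 0.550). At week 12 the direction was the opposite, with 90.2, 109.8, 85.4 and 82.6 FPKM in CD and 122, 131 and 128 FPKM in 3 of the HFD mice. The remaining HFD mouse lay below the highest CD mouse, so that the groups overlapped, and the difference between the means (92.0 ± 12.3 and 121 ± 12.6 FPKM) of 0.40 ± 0.10 passed (adjusted p = 0.0157).

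At week 16 Nkx6-1 was at 94.7, 74.2, 94.7 and 76.3 FPKM in CD and 115, 108, 111.9 and 97.8 FPKM in HFD mice. The groups did not overlap and the log2 difference was 0.35 ± 0.09 (adjusted p = 0.0253). Both calls were fragile: 4 of 8 fits without 1 mouse kept the week 12 call and 3 of 8 the week 16 call. With each library scaled to the same FPKM sum the differences were 0.19 at both weeks (adjusted p = 0.233 and 0.239). With insulin left out of the sum they were 0.69 at week 12 and 0.55 at week 16 (adjusted p = 2.1e-05 and 0.00087). Both calls were lost without the filter on low values (0.188 and 0.119) and with all 12 groups in 1 fit (0.0504 and 0.113), and the week 12 call with plain variances (0.0748), all adjusted p. At weeks 8, 20 and 24 the groups overlapped and the differences were -0.19, -0.11 and 0.20. The diet-by-week term for Nkx6-1 did not pass (F = 4.33, adjusted p = 0.0588), nor did its mean effect over the 6 weeks (0.07 ± 0.05, adjusted p = 0.320).

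Mafa, the maturity factor that acts on the insulin gene, had the largest single difference of the list and also a wide spread between mice. At week 8 it was at 105.8, 169, 76.7 and 122 FPKM in CD and 37.8, 36.7, 67.9 and 74.6 FPKM in HFD mice. Every HFD mouse lay below every CD mouse, with a difference of 54.1% between the means (118.3 ± 38.5 and 54.2 ± 19.8 FPKM), but with this spread the log2 difference of -1.13 ± 0.34 did not pass (adjusted p = 0.0943); with all 12 groups in 1 fit it did (adjusted p = 0.0161). At week 20 the CD mice had 221, 149.9, 145 and 114.9 FPKM and the HFD mice 79.95, 103.2, 113.7 and 114.6 FPKM. The groups were again apart, by less than 1 FPKM at their nearest, and the difference of -0.58 ± 0.19 did not pass (adjusted p = 0.101). At week 4 the HFD mice alone ran from 69.6 to 252 FPKM, while the 4 CD mice lay between 119 and 135.

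Over the 6 weeks together, Mafa was lower in HFD islets by a log2 difference of -0.30 ± 0.12 (adjusted p = 0.0393). The weekly differences were negative at weeks 8, 16, 20 and 24 and positive at weeks 4 and 12. The mean effect passed in 31 of the 48 fits without 1 mouse, with values of -0.34 to -0.24, and it did not pass without HFD212 (-0.28, adjusted p = 0.0626) or CD501 (-0.27, adjusted p = 0.0627), among others. It was also lost with insulin left out of the FPKM sum (-0.22, adjusted p = 0.118), where Nkx6-1 was called higher instead (0.15, adjusted p = 0.0326). With a score of acinar markers as a covariate the Mafa mean effect was -0.25 and did not pass (adjusted p = 0.115). The same held with the alpha and delta hormone score as a covariate (-0.25, adjusted p = 0.94). Ucn3 and Mafa were the 2 of 9 genes called for the mean effect, where 16.6% of all genes were called higher and 22% lower. These mean effects, of a pair of maturity marks, had opposite signs.

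Neurod1, a basic helix-loop-helix activator of the insulin gene, was lower in HFD islets at week 8. It lies on chromosome 2 (79452641 to 79456636, minus strand). The CD mice had 75.7, 78.2, 74.8 and 73.0 FPKM and the HFD mice 56.4, 50.9, 58.0 and 64.5 FPKM. The groups were well apart (75.4 ± 2.17 and 57.5 ± 5.60 FPKM, 23.8% lower by the means), and the log2 difference was -0.39 ± 0.07 (adjusted p = 0.0171). The call was lost without CD208 (adjusted p = 0.0504), without HFD211 (adjusted p = 0.0509), with median-ratio scaling (-0.27, adjusted p = 0.0564) and without the filter on low values (adjusted p = 0.0720). At week 4 its HFD values of 48.8 to 57.9 FPKM also lay below the CD values of 58.4 to 66.3 FPKM (adjusted p = 0.623), and from week 12 on its weekly difference lay between -0.03 and 0.07.

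Isl1, a LIM homeodomain factor shared by the endocrine cell types of the islet, was higher in HFD islets at week 24. It lies on chromosome 13 (116298257 to 116309721, minus strand), as does Ucn3. The CD mice had 52.0, 49.9, 47.0 and 49.7 FPKM and the HFD mice 56.2, 62.6, 62.4 and 60.7 FPKM. Every HFD mouse exceeded every CD mouse (49.6 ± 2.06 and 60.5 ± 2.96 FPKM, log2 difference 0.28 ± 0.07, adjusted p = 0.0246). Only 2 of the 8 fits without 1 mouse kept this call, the adjusted p running from 0.0187 to 0.0874. It was also lost with same-sum scaling (adjusted p = 0.330), with median-ratio scaling (0.19, adjusted p = 0.0968) and with all 12 groups in 1 fit (adjusted p = 0.122). At week 12 Isl1 was at 22.5 to 35.3 FPKM in CD and 23.9 to 30.6 FPKM in HFD mice, the lowest level of its course in both diets.

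The remaining 4 factors were not called in any week. Pdx1, the master regulator of pancreas formation and a direct activator of insulin, lay between 34.4 and 113.99 FPKM over all islet libraries, with its lowest value in the HFD212 mouse of week 8. Its largest difference was -0.45 ± 0.22 at week 8 (adjusted p = 0.211), where the HFD mice had 53.0, 34.4, 74.2 and 68.7 FPKM against 72.8 to 79.3 FPKM in CD. Nkx2-2, which holds the beta-cell fate against the alpha-cell fate, had its largest difference at the same week (-0.29 ± 0.14, adjusted p = 0.192). Pax6, a paired homeodomain factor of all islet endocrine cells, had its largest at week 20 (0.21 ± 0.11, adjusted p = 0.248). Foxa2 was below every CD mouse in all 4 HFD mice at weeks 4 and 8, by narrow margins (36.9 to 44.6 against 45.3 to 46.6 FPKM, and 27.9 to 37.3 against 37.5 to 39.2 FPKM), and neither difference passed (adjusted p = 0.623 and 0.135).

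The separation of the groups can also be counted. Among the 54 pairs of gene and week, 11 had no overlap between the 4 HFD and the 4 CD values, 4 with HFD above and 7 with HFD below. At week 4, 3 of the 9 genes (Nkx6-1, Neurod1 and Foxa2) had every HFD value below every CD value, as did 2.72% of all genes, while 1.5% had every HFD value above. At week 8, 3 (Mafa, Neurod1 and Foxa2) were below, where 15.8% of all genes were below and 1.43% above. At week 12 none was apart, against 6.91% above and 3.47% below. At week 16, Ucn3 and Nkx6-1 were above, where 6.64% of all genes were above and 8.77% below. At week 20, Mafa was below, where 9.76% were below and 4.84% above, and at week 24 Ucn3 and Isl1 were above, where 13.7% were above and 2.41% below.

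Single mice lay lowest for many of the genes at once. HFD112, of week 4, had the lowest value of its group for 6 of the 9 genes and the highest insulin share of the 48 islet libraries (75.1%), and without it the Mafa difference of that week was 0.60, against 0.23 with it, and was not called. HFD212 had the lowest value of its group for 9 of the 9 genes, and without it Neurod1 was still the 1 gene called at week 8 (-0.34, adjusted p = 0.0420), while the Mafa difference was -0.97 (adjusted p = 0.193). The differences of genes not called at that week shrank without it, to -0.01 for Isl1 (from -0.17), -0.04 for Nkx6-1 (from -0.19) and -0.16 for Nkx2-2 (from -0.29). HFD511 had the lowest value of its group for 6 of the 9 genes at week 20. Without it, Pax6 (0.31, adjusted p = 0.0292) and Isl1 (0.28, adjusted p = 0.0485) were called higher at that week. At week 12, CD304 had the lowest value of its group for 6 of the 9 genes, and without it neither Ucn3 nor Nkx6-1 was called at that week. Its insulin share of 53.7% was the lowest among the 48 islet libraries, and its summed acinar markers, 83394 FPKM, were the highest. The part of either in the week 12 calls was not tested.

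The levels also differed between the weeks within each diet. All 9 genes varied with week among CD islets and among HFD islets (adjusted p from 3.29e-11 to 0.00334 and from 1.47e-12 to 0.000256), where 77.5% and 83.8% of all genes did so. In CD islets Mafa went from 57.4 FPKM at week 12 to 158 at week 20, a log2 range of 1.42. Nkx6-1 went from 85.0 FPKM at week 16 to 194 at week 20, a ratio of 2.29. Neurod1 went from 39.6 FPKM at week 12 to 83.7 at week 20. Ucn3 had the smallest log2 range of the 9 in CD islets, 0.37, from 294 FPKM at week 24 to 381 FPKM at week 20. Week 20 held the highest CD mean for 8 of the 9 genes, the exception being Isl1, which was highest at week 16.

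Between the late weeks (16, 20 and 24) and the early weeks (4, 8 and 12), limma called a difference in the HFD effect for none of the 9 genes, against 2.19% of genes called with a higher and 0.969% with a lower late effect. The nearest were Pax6 (late minus early 0.24 ± 0.07, adjusted p = 0.0696), Isl1 (0.30 ± 0.10, adjusted p = 0.0807), Neurod1 (0.24 ± 0.09, adjusted p = 0.114) and Ucn3 (0.23 ± 0.08, adjusted p = 0.128). These 4 also had an unadjusted p under 0.05, and the other 5 did not. Without HFD511 the differences of Pax6 (0.27, adjusted p = 0.0140), Neurod1 (0.29, adjusted p = 0.0226) and Isl1 (0.33, adjusted p = 0.0363) passed.

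The target genes of these factors were followed through a list of 12. At week 8, glucose transporter 2 (Slc2a2) fell by 0.78 (adjusted p = 0.00475), the GLP-1 receptor (Glp1r) fell by 0.52 (adjusted p = 0.0334) and the granule zinc transporter Slc30a8 fell by 0.43 (adjusted p = 0.0182) on the log2 scale, in the week in which Neurod1 was lower. In the same week G6pc2, the islet glucose-6-phosphatase that opposes glucokinase, rose by 0.46 (adjusted p = 0.0329), so that 1 of the 12 was higher and 3 were lower. Of all genes tested at week 8, 0.602% were higher and 4.67% lower. At week 12, 4 of the 12 were higher and none lower: Ero1lb, an oxidase that helps fold proinsulin (0.71), Ins1 (0.61), Ins2 (0.46) and Iapp, the amyloid peptide released with insulin (0.38). At week 16 Ins1 (0.40), Iapp (0.36) and Ins2 (0.31) were higher, and at weeks 20 and 24 Iapp alone (0.42 and 0.47). The shares of all genes called higher and lower were 2.18% and 2.35% at week 12 and 3.3% and 5.15% at week 16. They were 1.53% and 3.21% at week 20, and 6.57% and 1.73% at week 24.

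**Figure D4:**
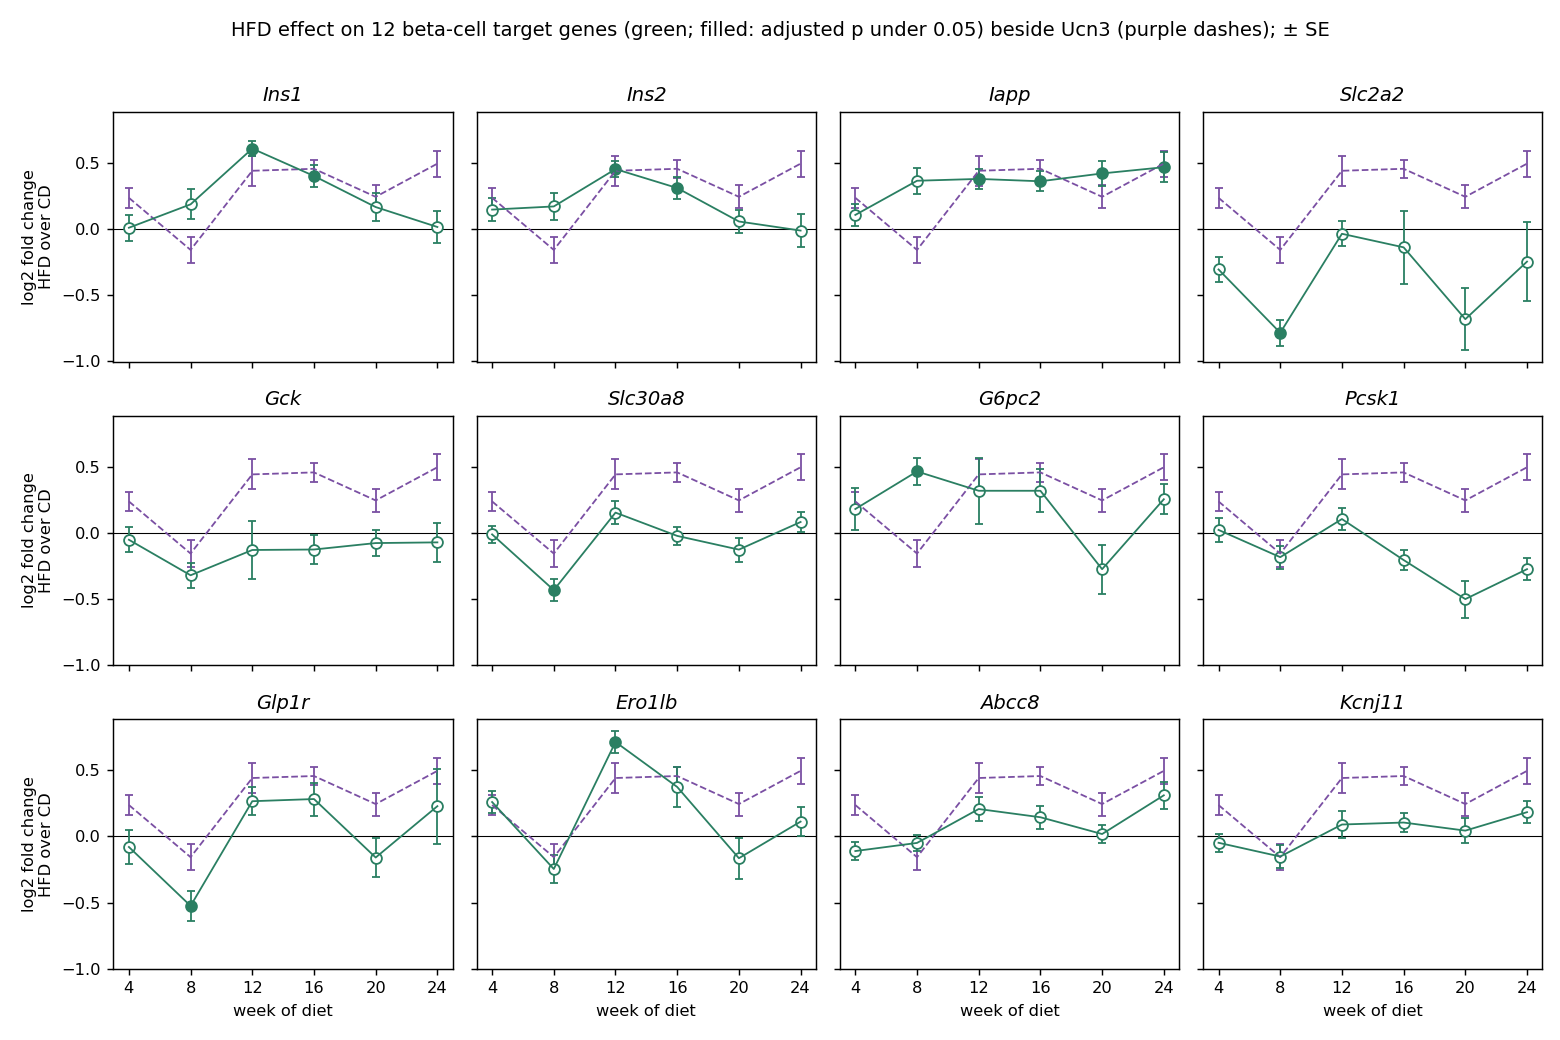
Log2 difference of HFD minus CD islets for the 12 beta-cell target genes (green, filled where the adjusted p was under 0.05) against weeks on the diet, with SE bars (n = 4 mice per diet) and the Ucn3 difference as purple dashes in each panel. Iapp was called higher at weeks 12, 16, 20 and 24, and Slc2a2 was called lower at week 8.

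Over the 6 weeks together 6 of the 12 targets were higher and 2 lower, beside 16.6% and 22% of all genes. The largest mean effects were those of Slc2a2 (-0.36 ± 0.09, adjusted p = 0.00147), Iapp (0.35 ± 0.04, adjusted p = 7.08e-10), Ins1 (0.23 ± 0.04, adjusted p = 8.71e-06) and G6pc2 (0.21 ± 0.08, adjusted p = 0.0277). The median of the 12 was 0.06, beside -0.01 for all genes. Pcsk1, the convertase that cuts proinsulin, was the 1 target whose effect changed from early to late weeks (-0.31 ± 0.08, adjusted p = 0.0279).

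Other transcription factors of the islet were listed as 12 genes, of which 11 passed the filter. Myt1, a zinc finger factor of endocrine cells, fell by 0.34 at week 8 (13.1 ± 1.24 to 10.1 ± 0.339 FPKM, adjusted p = 0.0275) and by 0.66 at week 16 (14.7 ± 1.25 to 8.91 ± 0.746 FPKM, adjusted p = 0.000104). St18, of the same family, fell by 0.34 at week 16 (adjusted p = 0.00587), and no other gene of this list was called in a single week. Over the 6 weeks together 5 of the 11 were lower and none higher, where 22% of all genes were lower and 16.6% higher; in the same contrast the alpha and delta markers had medians of -0.96 and -1.09, and their part was not tested. Myt1 (-0.47 ± 0.06), St18 (-0.26 ± 0.04), Rfx3 (-0.17 ± 0.05) and Hnf4a (-0.15 ± 0.04) had the largest effects, and the fifth was Rfx6 (-0.13 ± 0.04), named after its value was seen. The median of the 11 was -0.08.

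The partner proteins through which these factors work were 8 genes. Tle3, a corepressor of the Groucho family used by Nkx proteins, was lower at week 8 (-0.25 ± 0.06, adjusted p = 0.0495), and Ep300, a histone acetyltransferase, at week 20 (-0.39 ± 0.10, adjusted p = 0.0494). Ssbp3, which joins Ldb1 in the complex that Isl1 recruits, was higher at week 24 (24.8 ± 2.49 to 30.6 ± 0.792 FPKM, log2 difference 0.29 ± 0.08, adjusted p = 0.0340), the week of the Isl1 call. Over the 6 weeks 1 of the 8 was higher (Ssbp3, 0.12) and 3 were lower (Ep300, -0.21; Tcf12, -0.17; Crebbp, -0.14), beside 16.6% and 22% of all genes. Ssbp3 was also the 1 partner called with a larger effect late than early (0.26 ± 0.06, adjusted p = 0.0123).

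The family of Ucn3 was otherwise near the floor in islets. Of 6 CRF family genes listed (ligands, receptors and the binding protein Crhbp), 5 had values; Ucn and Ucn2 were at or below 0.13 FPKM in every islet library, and only Crhbp passed the weekly filter, at week 16, where it was not called. Crhr2, the receptor on delta cells, had mean levels of 0.33 to 0.43 FPKM in the CD groups and 0.11 to 0.37 FPKM in the HFD groups, too low for the test. Crhr1, a receptor that beta cells carry, had CD means of at most 1.21 FPKM and lower HFD means in each week; it passed no weekly filter and entered the fit over all libraries only through its higher CD values, so that no test is given.

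Among factors of endocrine progenitors, Neurog3, which starts endocrine differentiation, was lower at week 12 (3.86 ± 0.60 to 2.12 ± 0.795 FPKM, adjusted p = 0.0110), week 16 (2.57 ± 0.81 to 1.14 ± 0.385 FPKM, adjusted p = 0.0217) and week 24 (2.83 ± 0.411 to 1.88 ± 0.514 FPKM, adjusted p = 0.0464), with a mean effect of -0.42 ± 0.08. Pax4, a factor of beta-cell specification, was listed at 0 in nearly all libraries, with a highest value of 0.03 FPKM.

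The makeup of the islet libraries moved with the diet as well, and in bulk RNA fewer cells of a type and less RNA per cell cannot be told apart. The 7 alpha-cell markers, led by Gcg, summed to 14747 ± 472 FPKM in CD and 13352 ± 1075 in HFD at week 4, with none called. At week 16 they summed to 8694 to 13376 FPKM in the CD mice and 1866 to 3753 in the HFD mice, and at week 24 to 6817 to 12703 and 1108 to 2129. From week 8 on, 5 of the 7 were lower in each week, and 1 was higher at weeks 8, 16 and 24. The 4 delta-cell markers, led by Sst, summed to 2177 to 2905 FPKM in CD and 509 to 1138 in HFD mice at week 16, and to 2317 to 2959 and 330.3 to 634 at week 24. None of these marker genes was at 0 throughout any week. The mean sums of both lists were lower in HFD islets in all 6 weeks, those of week 8 (11635 to 7974 and 3545 to 2219 FPKM), where the Ucn3 difference was negative, and week 20 (9327 to 2568 and 3868 to 969 FPKM), where Ucn3 was not called, included. Their part in the Ucn3 result by week was not tested.

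With an alpha and delta hormone score as a covariate the mean effect on Ucn3 was 0.24 and did not pass (adjusted p = 0.732), in a fit that called 3 genes of all. The 9 acinar markers, led by Ctrb1, were called in no week, but their sums differed in both directions: 53060 ± 21749 FPKM in CD and 20644 ± 10990 in HFD at week 12, 23761 ± 6340 and 8961 ± 3621 at week 16, and 7358 ± 2691 and 16104 ± 6085 at week 20. Of the 9, 8 passed the filter at weeks 4 to 20, and all 9 at week 24. With an acinar score as a covariate the Ucn3 mean effect was 0.25 (adjusted p = 9.1e-06) and that of Mafa was -0.25 (adjusted p = 0.115). Insulin transcripts held 57.0% ± 2.38 of the FPKM sum in CD and 69.6% ± 2.10 in HFD islets at week 12, and 62.6% ± 2.13 and 70.8% ± 2.59 at week 16. FPKM is scaled to library size, and the FPKM sums themselves differed between the diets. Their means were 1016170 in CD and 1176760 in HFD islets at week 12, and 980460 and 1096500 at week 16. With insulin left out of the sum the Ucn3 differences were 0.73 at week 12 and 0.66 at week 16. With each library set to the same FPKM sum they were 0.23 and 0.30.

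Markers of smaller cell types moved as well. At week 16, when Ucn3 and Nkx6-1 were called higher, 2 of 5 stromal markers were higher (sums of 50.2 ± 5.60 to 66.1 ± 9.28 FPKM) and 1 of 5 endothelial markers was lower, and at week 20 1 stromal marker was higher (37.1 ± 3.81 to 47.1 ± 3.21 FPKM). At week 24, 3 of 5 endothelial markers and 3 of 5 stromal markers were higher, with sums of 144 ± 5.99 to 177 ± 22.3 FPKM (led by Plvap) and 36.9 ± 2.52 to 63.7 ± 14.0 FPKM (led by Rgs5). Of 5 macrophage markers, led by C1qa, 1 was higher at weeks 12 and 16. The 6 ductal markers had 1 lower gene at weeks 12, 16 and 20, and neither the 4 lymphocyte nor the 4 hepatocyte markers had a call in any week. Only 1 or 2 of the lymphocyte and 1 to 4 of the hepatocyte markers passed the filter in a given week, and the rest were not tested. In the mean effect over the 6 weeks, the contrast in which Ucn3 and Mafa were called, the acinar Cela2a (-0.87) and Cpa1 (-0.58) were lower, as were the ductal Muc1 (-0.63) and Krt19 (-0.45) and the lymphocyte Cd79a (-0.52). Higher in the same contrast were the macrophage Adgre1 (0.22) and C1qa (0.25), the stromal Pdgfrb (0.28) and Rgs5 (0.38) and the hepatocyte Alb (0.60), and of 5 endothelial markers 2 were higher (Cdh5, 0.11; Plvap, 0.10) and 2 lower (Flt1, -0.15; Kdr, -0.11). The 2 pancreatic polypeptide markers, led by Ppy, summed to 3576 ± 483 FPKM in CD and 744 ± 237 in HFD islets at week 24. Of these, 1 was called lower at weeks 12 and 20, and 2 at weeks 16 and 24. In the mean effect Ppy (-1.18) and Pyy (-1.26) were lower. Apart from the acinar score used as a covariate above, the part of these markers in the results for the 9 genes was not tested.

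Across the 48 islet libraries the genes whose level ran most closely with each of the 9 were found among 11556 genes by Pearson's r. For Ucn3 they were Laptm4b (r = 0.83), Pla2g15 (0.82) and Hexa (0.82), and after the 12 group means were removed the r values were 0.59, 0.58 and 0.55. For Nkx6-1 they were Mypop (0.91), the gene listed as 9-Mar, which is Marchf9 (0.90), and Trim17 (0.88). Inside groups these were 0.76, 0.53 and 0.82. Pdx1 ran with Efnb1 (0.85), the homeobox gene Mnx1 (0.83) and Cdk5r2 (0.83), with nearly the same r inside groups (0.77, 0.83 and 0.81).

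Mafa ran with Btbd17 (0.84), Gnaz (0.82) and the fatty acid receptor Ffar1 (0.81). Isl1 ran with Syne1 (0.91), Setd6 (0.91) and Gtf2a1 (0.90), and Neurod1 with Nectin3 (0.92), Tcf4 (0.91) and Vegfa (0.91). Inside groups these fell to 0.44, 0.62 and 0.52 for Isl1 and to 0.68, 0.43 and 0.33 for Neurod1. Most of the likeness of Neurod1 with Vegfa thus lay between the groups. Pax6 ran with Ss18, Lgals8 and Pold3 (0.89 each), Nkx2-2 with Marchf9 (0.89), Tcf3 (0.85) and Agap3 (0.85), and Foxa2 with Trim8 (0.88), Zfp316 (0.86) and Zfp777 (0.85). For Pax6, Nkx2-2, Foxa2 and Mafa the r inside groups lay between 0.62 and 0.78. Among the 36 pairs of the 9 genes themselves, r ran from -0.14 (Neurod1 with Ucn3) to 0.88 (Isl1 with Neurod1), with a median of 0.36. Inside groups the r of Isl1 with Neurod1 was 0.45, and the median of the pairs was 0.30. These points share libraries, week and FPKM totals, and the r values are descriptions.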

How the data were processed

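The authors sequenced poly(A) RNA from islets and liver of each mouse on the BGISEQ-500 platform after random-hexamer priming, and deposited FPKM per gene and library. The submitters' processing notes name HISAT2 2.0.4, Bowtie2 2.2.5, RSEM 1.1.12, DESeq2 and the GRCm38.p5 build, with no role or order. The table listed 21990 genes, of which 1835 had no values; it held no read counts, so the depth is unknown and no counting intervals are given. The authors' averages, module labels and comparison columns (fold changes and tests headed DEGseq) were not used.

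Samples were grouped by diet and weeks on diet from the labels, with 4 mice per group. Genes at or above 1 FPKM in at least 4 of the 8 islet libraries of a week were fitted with limma 3.58.1 in R 4.3.3 on log2(FPKM + 1), with mean-variance trend and robust variances, HFD against CD, and Benjamini-Hochberg adjustment over all genes tested; an adjusted p under 0.05 was called. This pseudocount makes changes of low genes smaller. Mean, late minus early, diet-by-week and week effects came from 1 fit of all 48 islet libraries with 12 groups (at least 1 FPKM in at least 4). Likeness used genes at or above 1 FPKM in at least 24 libraries. The fitting code was tested on simulated data. Tables were handled in Python 3.11.15. Alternatives were another pseudocount, no filter, 3 scalings, all groups in 1 fit, plain variances, a fold threshold, marker covariates and leaving out each mouse.

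All 9 genes were named, the called genes of each list up to 4 per comparison by size, and 3 like genes for each of the 9. The 9 genes and the lists were chosen with earlier results of these data known. The labels number the mice singly, and p-values measure the spread between these mice.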

Additional observations from a re-analysis of the deposited data

Results flagged for a closer look

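In 9 of the 108 groups of 4 values (9 genes in 12 groups), 1 mouse stood apart from the other 3 by more than Dixon's 95% limit for 4 values; chance gives about 1 in 20 groups. For Ucn3 these were HFD118 at week 4 (389 FPKM, below the 404.6 to 406 of the others) and HFD614 at week 24 (511.4 FPKM, above 377 to 394). For Neurod1 both diets had 1 at week 16, CD405 (77.9 FPKM) and HFD416 (80.8 FPKM), each the highest of its group. Pdx1 was 103.4 FPKM in HFD316 at week 12, Nkx6-1 was 231 FPKM in HFD516 at week 20, and Nkx2-2 was 97.3 FPKM in CD104 at week 4. Isl1 was 57.1 FPKM in HFD418 at week 16, and Pax6 was 51.1 FPKM in CD304 at week 12, the 1 low value beside that of HFD118.

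The HFD effect on Ucn3 differed between weeks (diet-by-week term, limma, adjusted p = 0.0192); the term was not called without HFD212 or CD205, with median-ratio scaling or with the hormone score as a covariate. For Nkx6-1, every HFD mouse was below every CD mouse at week 4 and above at week 16, and the week 16 log2 difference exceeded that of week 4 by 0.58; this pair of weeks was not tested by itself, and the diet-by-week term of Nkx6-1 had an adjusted p of 0.0588.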

How the results depend on the processing

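No paired analysis was possible because the HFD and CD mice compared are different animals that share no number. A pseudocount of 0.1 changed no call of the 9 genes, and no result that passed the test changed direction under any alternative run. The number of the 9 genes called at weeks 8, 12, 16 and 24, reported as 1, 2, 2 and 2, became 0, 0, 1 and 1 without the filter on low FPKM. With each library scaled to the same FPKM sum it became 4 (all lower: Neurod1, Pax6, Foxa2 and Ucn3), 1 (Isl1, lower), 1 and 1. With all 12 groups in 1 fit it became 2, 1, 1 and 1. With an absolute log2 difference of at least 1 as well it was 0 in each. Median-ratio scaling gave 0 at week 8 and 1 at week 24. Leaving insulin out of the sum gave 5 at week 12 and 4 at week 16, and fitting without trend or robust variances gave 0 at week 12. The diet-by-week count of 1 became 7 with insulin left out, 0 with median-ratio scaling and 0 with the hormone score. The mean-effect count of 2 became 0 with the hormone score, and the late minus early count of 0 became 1 (Pax6) with the acinar score. The causes were not tested. The scalings moved the median of all genes by -0.22, -0.17 and -0.13 (same sum; weeks 8, 12 and 16) and by -0.13, 0.27, 0.19 and 0.10 (insulin left out; weeks 8, 12, 16 and 24).

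Leaving out 1 mouse at a time, the counts ran from 0 to 0 at week 4, 0 to 1 at week 8, 0 to 2 at week 12, 1 to 2 at week 16, 0 to 2 at week 20 and 1 to 2 at week 24. They ran from 1 to 3 for the mean effect, 0 to 3 for late minus early, 0 to 3 for diet by week, and 9 to 9 for week in CD and in HFD islets. Ucn3 was called at week 16 under 7 of the 7 alternatives other than the fold threshold (0.30 to 0.66) and at week 24 under 6 of these 7 (adjusted p = 0.0767 without the filter). With 4 mice a group and no read counts, small differences in the other genes could not be resolved.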
